A study of Mus musculus with 22 samples.

Results

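The comparison examined here set 2 libraries of Dux knockout mouse embryonic stem cells expressing C12345delt14 against 2 libraries expressing deltC12345delt14, which are 4 of the 22 samples of the series. These are the samples whose labels carry those construct names. Every cell line was a mouse embryonic stem cell line lacking Dux (Dux-/-), kept in 2iLIF medium, in which 0.25 ug/mL doxycycline given for 12 hours switched on a transgene for an mCherry fusion, mCherry being a red fluorescent protein. C12345delt14 carries the repeats C1 to C5 of DUX and lacks the 14-residue tail. In deltC12345delt14 both the repeats and the tail are deleted. The comparison therefore asks what C1 to C5 do in a protein without the tail. Its counterpart with the tail is FL, full-length DUX, against deltC12345+14, which lacks C1 to C5 and keeps the tail. Those are 4 other libraries, and the 2 comparisons contrast none in common, though all of them entered 1 fit that pooled the spread. The labels do not say whether a line is 1 clone or whether replicates came from separate cultures, so p-values measure the spread between these samples, which may be technical. How much of each fusion protein the cells held was not analysed here.

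DUX is a transcription factor of the early mouse embryo that binds DNA through a pair of homeodomains near its N terminus and activates through its C-terminal part, where the repeats and the tail lie. In embryonic stem cells it is known for switching on the genes and retroviral promoters that are active when the embryo's own genome is first transcribed at the 2-cell stage. Among these genes are the Zscan4 cluster, whose zinc finger proteins are linked to telomere maintenance, and many genes present in large near-identical families.

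To show where some genes called higher start, promoter windows (250 bases before to 50 after the start site, RefSeq, GRCm38.p6) were searched. The search took GATTNNATC on both strands, N being any base, a core that 2 homeodomain half-sites could share. The letters were chosen with the results known, after longer spellings of the same pair had been searched, and a match describes letters and shows neither binding nor a cause. A match stood in 495 of the 27025 genes with a window (1.83%) and in 167 of the 12162 tested genes with one (1.37%). It stood in 43 of the 1001 with a window that were called higher with C1 to C5 (4.30%) and in 22 of the 1381 called lower (1.59%). Without genes that share sequence with others, 23 of 782 called higher held it (2.94%). Among the other multicopy 2-cell genes listed below 3 of 17 windows held it (17.65%), and among the low-copy ones 1 of 12 (8.33%). All 4 Zscan4 windows in the table held a match, those of Zscan4b, Zscan4c, Zscan4d and Zscan4f. Lined up on it they were 95.3% to 99.3% identical, so they are copies and not separate cases. 4 windows are shown, 5′ to 3′ on the strand of the gene. They belong to a strongly responding Zscan4 gene, a second one with less shared sequence, Abcb5, which shares none, and Zfp352, which had no match. Abcb5 is not among the largest increases (log2 fold change 7.09) and was picked after its values were seen. Tmem92 and Drd3, at 14.74 and 11.56 with little shared sequence, are not among the 43 genes with a match. Capitals mark the match in the Zscan4f window (chr7:11397665-11397964, plus strand), the Zscan4d window (chr7:11166099-11166398, minus strand) and the Abcb5 window (chr12:118966372-118966671, minus strand). In the Zfp352 window (chr4:90218570-90218869, plus strand) they mark TAATCC on either strand.
Zscan4f: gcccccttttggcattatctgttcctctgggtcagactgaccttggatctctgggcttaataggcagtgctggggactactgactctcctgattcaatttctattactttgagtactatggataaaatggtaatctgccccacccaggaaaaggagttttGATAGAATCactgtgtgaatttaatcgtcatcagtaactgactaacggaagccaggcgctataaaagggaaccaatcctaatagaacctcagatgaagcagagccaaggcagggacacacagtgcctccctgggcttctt
Zscan4d: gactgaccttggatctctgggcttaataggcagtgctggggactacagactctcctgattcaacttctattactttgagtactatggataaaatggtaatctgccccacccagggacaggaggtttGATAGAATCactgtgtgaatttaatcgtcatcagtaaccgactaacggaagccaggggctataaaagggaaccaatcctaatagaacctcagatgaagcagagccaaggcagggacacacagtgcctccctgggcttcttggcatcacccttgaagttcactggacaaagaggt
Abcb5: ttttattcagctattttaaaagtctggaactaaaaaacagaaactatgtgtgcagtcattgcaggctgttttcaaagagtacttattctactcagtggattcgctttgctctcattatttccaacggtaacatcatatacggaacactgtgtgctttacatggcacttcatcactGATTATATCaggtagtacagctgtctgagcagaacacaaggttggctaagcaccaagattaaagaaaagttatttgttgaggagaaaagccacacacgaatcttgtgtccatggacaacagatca
Zfp352: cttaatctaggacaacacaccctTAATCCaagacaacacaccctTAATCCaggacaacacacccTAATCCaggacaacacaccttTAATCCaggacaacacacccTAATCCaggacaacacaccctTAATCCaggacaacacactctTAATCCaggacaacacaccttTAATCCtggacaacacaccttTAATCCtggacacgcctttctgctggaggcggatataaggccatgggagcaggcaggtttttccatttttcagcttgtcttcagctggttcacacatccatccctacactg
The match begins 90 bases before the start site in Zscan4f, 124 in Zscan4d and 75 in Abcb5. The Zfp352 window holds 9 copies of TAATCC, letters picked after the sequence was seen. Of all 32851 windows 2320 (7.06%) held TAATCC at least once on either strand, and the Zfp352 window is the 1 window with as many as 9.

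The 4 libraries held 27326760 to 40448890 reads counted in genes, and 1 read equals 0.820 to 1.14 normalised reads (read counts divided by 1 size factor per library). A gene with 0 reads is compatible with up to 3, and a fold against a group with no read is given as "at least", against 3 reads per library. These limits cover counting error only. The Dux locus was at 0 reads in both groups, for Duxf3 and for Gm4981, so it checks no label. The embryonic stem cell markers Pou5f1, Sox2, Nanog, Sall4, Lin28a and Esrrb were all detected. Replicate 1 of deltC12345delt14 stood apart from the other 3 libraries: 0.419% of its reads lay in 1600 high-copy genes, against 2.07% to 2.58% in them. The same split ran through deltC12345+14, and FL was on the side of the 3. Replicate 1 of C12345delt14 lay farther from deltC12345delt14 than replicate 2 in 1851 of 2500 genes called higher and 1593 of 1865 called lower. Counts of calls are therefore also given without these libraries.

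With C1 to C5 present and the tail absent, all 9 Zscan4 genes, 34 of 37 other multicopy 2-cell genes and 12 of 18 low-copy 2-cell genes were called higher. In deltC12345delt14 6 of the 9, 31 of the 37 and 9 of the 18 were at 3 reads or fewer per library. Such genes had no room to be called lower. Nelfa and Dppa2, of the 18, were already well detected. In the lists of lineage, signalling and stress genes 0 to 4 members each were called lower, and Egr1, Axin2, Mthfd2, Nupr1, Pmaip1 and Plk2 were called higher. Of 19833 genes tested, 4365 were called (22.0%), at an adjusted p under 0.05 (limma, Benjamini-Hochberg) and a change of at least 2-fold. Called higher were 2500 genes (12.6%), with a median log2 fold change of 3.37 among them. Called lower were 1865 (9.40%), with a median of -1.61. The median over all genes tested was 0.08. Of the genes called higher 870 had no read in either deltC12345delt14 library, and of those called lower 11 had none in C12345delt14. Folds are on the scale log2(value + 1), which understates changes of low genes. Since these are bulk samples, fewer cells with a response and less RNA per cell cannot be told apart. Without C12345delt14 replicate 1 the count was 1862, with 1449 higher and 413 lower. It was 2831 without deltC12345delt14 replicate 1 and 2861 without replicate 2. In these 3 fits at least 3869 of the 4365 kept a difference of 2-fold or more in the same direction and none changed sign. Quantile normalization, which moved the median of all genes to -0.17, turned the balance to 1827 higher and 2830 lower, and leaving out genes with shared sequence gave 3316 calls among 15082 genes (22.0%), 1445 higher (9.58%) and 1871 lower (12.4%).

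All 9 members of the Zscan4 family were called higher. Zscan4f (ENSMUSG00000070828, chromosome 7, 11397915 to 11402318, GRCm38) stood at 399117 and 246087 normalised reads in C12345delt14 and at 0.821 and 0 in deltC12345delt14. A single read in 1 library is behind the lower level, and the ratio of 751738 has a counting interval (95%, exact) from 134922 to 29692119. Zscan4d, whose promoter window is printed above, had 173837 and 105818 against 0 and 0, at least 56510-fold higher. In the same order FL held 527214 and 280341 and deltC12345+14 held 0 and 0. The list's median log2 fold change was 17.05, and 16.33 with genes at 0 reads placed at their bound. Much of each gene's sequence is shared within the family (50.5% of sampled 50-base words in Zscan4d, 95% in Zscan4f), so the split of reads between members is uncertain. Together they took 5.69% and 4.31% of all reads in C12345delt14, 16 reads in deltC12345delt14 replicate 1 and none in replicate 2.

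Genes of other multicopy 2-cell families were mostly called higher too, but their log2 fold changes spread widely. They ran from -0.90 to 18.46, beside 16.14 to 17.83 in the Zscan4 family. Of 37 tested, 34 were called higher and none lower, the median log2 fold change being 11.39 (10.18 with bounds). In 31 of the 37 no deltC12345delt14 library held more than 3 reads, and 23 had no read there. Those 31 passed the filter through other groups and had no room to be called lower. Gm21293 (ENSMUSG00000091779, chromosome 10, 104142987 to 104153674) was the gene with the largest increase of all tested, at 613765 and 388601 normalised reads against 0 and 0.829. It belongs to an array of 7 near-identical protein-coding genes that held 9.42% and 7.34% of all reads in C12345delt14 and 7 reads in 1 of the deltC12345delt14 libraries. Gm4340 of the same array had 516854 and 336192 against 0 and 0.829. The 3 members without a call were Trim43a, Trim43b and Trim43c, at log2 fold changes of 1.43, 0.95 and -0.90. Of the 37 genes 35 share sequence with other genes, and without such genes 2 remained, both called higher.

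Low-copy genes of the same stage gave a more graded picture, though 9 of the 18 also share sequence with other genes. Of 18 tested, 12 were called higher and none lower, with a median of 2.93 (2.51 with bounds). Tmem92 (ENSMUSG00000075610, chromosome 11, 94777217 to 94782703), a transmembrane protein gene, had the largest increase among genes with little shared sequence. Its levels were 31465.5 and 23716.9 normalised reads against 0 and 0, at least 11151-fold higher. Zfp352 (ENSMUSG00000070902, chromosome 4, 90218820 to 90225702), a zinc finger gene and widely used marker of the 2-cell state, had 2949 and 2315 against 0 and 0, at least 1064-fold higher. Neither gene had a read in the libraries that lacked both repeats and tail. Nelfa, a subunit of the negative elongation factor, was transcribed without the repeats too: 10942 and 11777 against 1610 and 1642, a log2 fold change of 2.80 (SE 0.16, adjusted p 9.89e-06). Dppa2, a known activator of Dux and of 2-cell genes that shares 29.5% of its sampled words with other genes, rose from 1345 and 1243 to 6358 and 5725 (log2 fold change 2.22, SE 0.21, adjusted p 0.000202). Its groups were far apart, and so were those of Nelfa. Members without a call were Ddit4l, Phf11b, Phf11c, Btg2, Dppa3 and Dppa4, between 0.17 and 1.63. Among the 9 with little shared sequence 8 were called higher. Without 1 library at a time, 10 or 11 of the 18 were called.

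**Figure D1:**
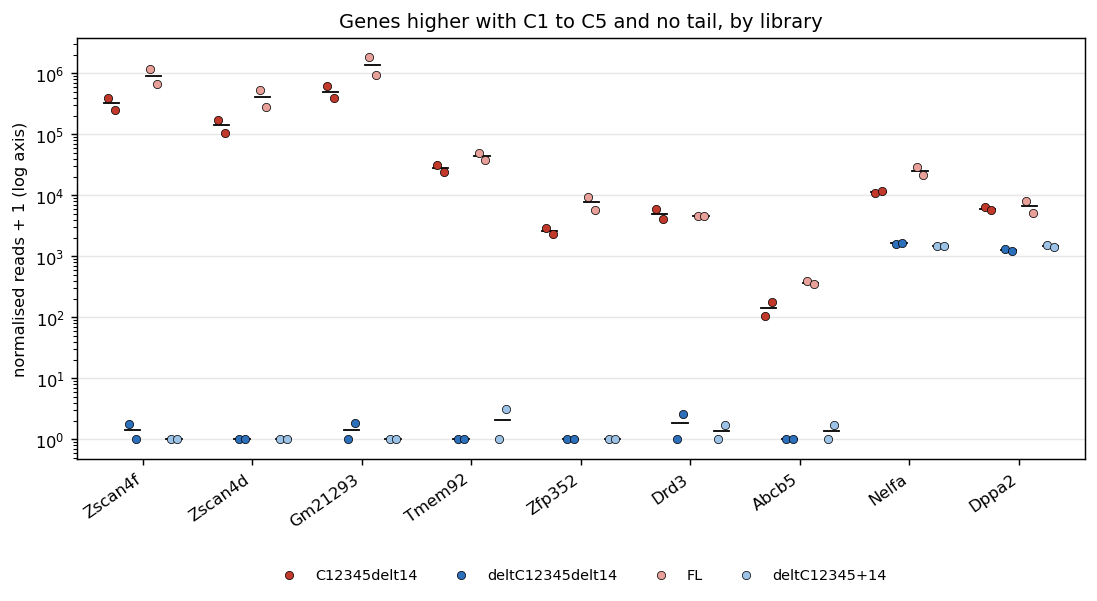
Normalised reads plus 1 on a log axis for 9 genes in the 8 libraries of the 4 constructs, 1 point per library and a bar at the mean of 2. Zscan4f, Zscan4d, Gm21293, Tmem92, Zfp352, Drd3 and Abcb5 lie at 104 normalised reads or more in both C12345delt14 libraries and under 2 in both deltC12345delt14 libraries, while Nelfa and Dppa2 rise from levels of 1243 to 1642.

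Most of the other large increases among genes with little shared sequence were pseudogenes, non-coding RNAs and unnamed loci. They were the processed pseudogenes Gm6494, AC148019.3 and Gm4810, the unprocessed pseudogene Gm42662, the lincRNA Gm6507, the unclassified transcript Gm38342 and the protein-coding gene B020031M17Rik. B020031M17Rik had 10292 and 6565 normalised reads against 0 and 0 (at least 3406-fold), Gm6507 3117 and 2561 against 0 and 0 (at least 1147-fold). The best-known protein-coding gene among them was Drd3, the dopamine D3 receptor. It had 5912 and 4079 normalised reads in C12345delt14 and 0 and 1.66 in deltC12345delt14, a ratio of 5874 (95% exact counting interval 1626 to 48510). Its FL libraries were at 4565 and 4658, within the range of C12345delt14. By gene class, 1299 of 14736 protein-coding genes were called higher (8.82%) and 1697 lower. Of 298 unprocessed pseudogenes 152 were called higher (51.0%) and 6 lower, and of 710 lincRNAs 218 higher (30.7%) and 55 lower. Over all genes 12.6% were called higher and 9.40% lower. A gene was tested if it reached 10 normalised reads in any 2 of the 8 libraries. A class with few reads in deltC12345delt14 could therefore enter through libraries with the repeats, which helps to set its share called higher. The shares by class were not recounted without genes with shared sequence. Abcb5 and Serpinf1, which share no sampled words with other genes and hold the match in their promoter window, were picked after their values were seen. Abcb5, a membrane transporter, had 104 and 175 against 0 and 0 (at least 56.5-fold), and Serpinf1, which codes for the secreted factor PEDF, had 219 and 128 against 4.10 and 7.46 (log2 fold change 4.68, SE 0.49, adjusted p 0.000409).

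The genes that respond to full-length DUX were then followed. The chimera table of the series holds FL and mCherry alone, and 5290 of its 21584 genes tested were called higher in FL (24.5%) and 4241 lower (19.6%). None of the 4 libraries compared here took part in that choice. The FL libraries did, and they also entered the filter on low values and the pooled spread of the fit used below. Of the 4823 DUX-induced genes tested, 2101 were called higher in C12345delt14 (43.6%) and 4 lower, beside 12.6% higher over all genes. The share grew with the size of the response to FL. It was 18.2% of 1337 genes at a log2 increase of 1 to 2, 34.2% of 1775 at 2 to 4, 66.3% of 1276 at 4 to 8 and 92.9% of 435 at 8 or more. Among genes with little shared sequence those shares were 22.0%, 47.7%, 81.8% and 97.3%. Of 3996 DUX-lowered genes tested, 1296 were called lower (32.4%) and 7 higher, beside 9.40% lower over all genes. In 11014 genes of neither set 3.56% were called higher and 5.13% lower. Filtered and fitted on only the groups compared, 1753 of 4033 induced genes were called higher (43.5%) and 1366 of 3844 lowered genes lower (35.5%). The mCherry libraries are on the low side for high-copy reads and the FL libraries on the high side, as are both C12345delt14 libraries. With that side as a covariate 1969 of the induced genes were called higher and 1101 of the lowered genes lower. Without deltC12345delt14 replicate 1, the low-side library, these counts were 1552 and 638, and without C12345delt14 replicate 1 they were 1327 and 303.

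**Figure D2:**
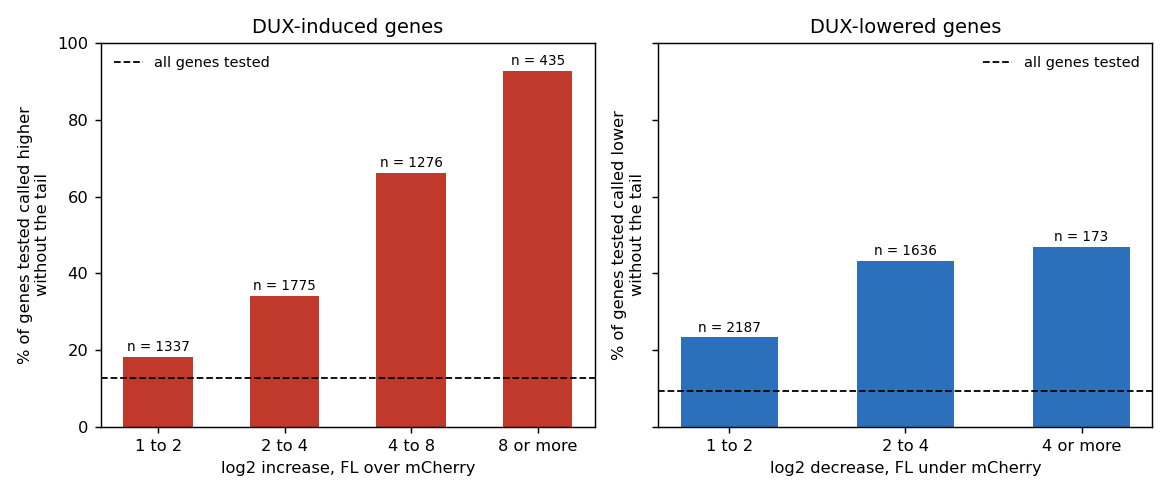
Percent of tested genes called higher (left, DUX-induced genes) or lower (right, DUX-lowered genes) in C12345delt14 against deltC12345delt14, by the size of the log2 change between FL and mCherry; n is the number of genes tested in a bin and the dashed line the percent over all genes tested. The left bars climb from 18.2% to 92.9%, the right bars from 23.3% to 46.8%, and each lies above its line (12.6% and 9.40%).

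Of 20 pluripotency genes none was called higher and 3 were called lower, Lin28a, Fgf4 and Klf2, beside 9.40% lower over all genes, with a list median of -0.90. Quantile normalization gave 10 called lower. Pou5f1, the core factor OCT4, was at 23758 and 23025 normalised reads against 16202 and 19274 (log2 fold change 0.40, SE 0.15, adjusted p 0.072), a value that becomes -0.34 after quantile normalization. Fgf4, the ligand through which stem cells prime themselves for differentiation, fell from 4947 and 5355 to 458 and 1512, a log2 fold change of -2.63 (SE 0.78, adjusted p 0.036). Lin28a, which blocks let-7 maturation, fell from 1182 and 1641 to 165 and 280 (-2.69, SE 0.60, adjusted p 0.014). Klf2, a naive-state factor, fell from 4974 and 5641 to 1320 and 2510 (-1.54, SE 0.27, adjusted p 0.0056). Nanog, Esrrb and Tfcp2l1, further naive-state factors, lay at -0.95, -0.96 and -0.97, with adjusted p of 0.035, 0.033 and 0.043 and short of a 2-fold change. Nanog had 7954 and 13014 against 19766 and 19473. Sox2 had 2555 and 5400 against 7999 and 7649, a log2 fold change of -1.07 with an adjusted p of 0.097. In each of these genes but Pou5f1, C12345delt14 replicate 1 was the lower of its pair. Without it 1 of the 20 was called lower, and without replicate 2 there were 8. Without deltC12345delt14 replicate 1 or 2 there were 2 and 1.

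In 3 lists of trophectoderm, primitive endoderm and epiblast or germ layer genes no member was called higher. Among 12 trophectoderm genes none was called higher and 4 were called lower, with a median of -1.13. They include Tfap2c, the AP-2 gamma factor (2374 and 2634 to 239 and 666, log2 fold change -2.65, SE 0.46, adjusted p 0.0055), and the keratin gene Krt7 (135 and 115 to 21.7 and 23.8, -2.40, SE 0.57). Eomes and Esx1 were the others, at log2 fold changes of -1.06 and -1.20. None of 11 primitive endoderm genes was called, at a median of -0.02. Of 12 genes of epiblast priming and germ layers 3 were called lower, Nodal, Wnt3 and Lefty2. Nodal, a TGF-beta ligand, fell from 1446 and 1538 to 309 and 612 (-1.78, SE 0.40, adjusted p 0.014). Lefty2, the inhibitor that Nodal induces, fell from 415 and 351 to 35.4 and 116 (-2.55, SE 0.83, adjusted p 0.0495). Over all genes 9.40% were called lower. Without either of the C12345delt14 replicates in turn, 1 and 2 trophectoderm genes and 0 and 2 epiblast genes were called lower. Without those of deltC12345delt14 in turn, the counts were 2 and 1 for trophectoderm and 0 and 0 for epiblast genes. With the high-copy side as a covariate 1 epiblast gene was called lower.

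Of 12 immediate early genes tested, 4 were called lower (Atf3, Jund, Junb and Ier2), 1 higher (Egr1) and 7 neither, at a median of -0.81. Over all genes 9.40% were called lower and 12.6% higher, and the lists of ERK feedback genes and Wnt targets stand beside the same shares. Junb, an AP-1 subunit, fell from 419 and 450 normalised reads to 141 and 172 (-1.48, SE 0.31, adjusted p 0.011). Jund, another AP-1 subunit, fell from 716 and 908 to 227 and 356 (-1.5, SE 0.26, adjusted p 0.0056). Egr1, a zinc finger gene induced by serum and ERK, rose from 0.821 and 5.80 to 54.9 and 19.7 (3.27, SE 0.77, adjusted p 0.017). Of 10 ERK feedback genes 2 were called lower, the ETS factor gene Etv5 (9098 and 10316 to 3127 and 4994, -1.29, SE 0.23) and the inhibitor gene Spred2 (1666 and 1903 to 669 and 994, -1.13, SE 0.20), and none higher. Of 10 Wnt targets Axin2, a feedback inhibitor, was called higher (215 and 242 to 564 and 710, 1.47, SE 0.22, adjusted p 0.0030) and Ccnd1, cyclin D1, lower (-1.39, SE 0.26, adjusted p 0.0065). Without C12345delt14 replicate 1 the calls were 2 lower among the immediate early genes, none among the ERK genes, and 1 higher and none lower among the Wnt targets. Without deltC12345delt14 replicate 1 they were 2 lower and none higher, 3 lower, and 1 each way. Without its replicate 2 they were 1 each way, 2 lower, and 1 each way.

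The integrated stress response and p53 target lists split. Among 18 stress response genes the transcription factor genes Atf4 and Ddit3 and the genes Trib3 and Gdf15, which act downstream of them, were called lower. Atf4 fell from 4905 and 7035 to 1287 and 1684 (-2.0, SE 0.27, adjusted p 0.0017), and Ddit3, which codes for CHOP, from 410 and 913 to 112 and 73.0 (-2.75, SE 0.47, adjusted p 0.0050). Mthfd2, a mitochondrial enzyme of folate metabolism, and Nupr1, a stress-induced chromatin protein, were called higher. Mthfd2 rose from 1119 and 1247 to 5455 and 4416 (2.05, SE 0.20, adjusted p 0.000258). The list's median was -0.17. Its calls became 1 higher and 2 lower without C12345delt14 replicate 1, 3 and 2 without replicate 2, 1 and 4 without deltC12345delt14 replicate 1, and 2 and 2 without its replicate 2. Among 15 p53 targets the BH3-only gene Pmaip1, which codes for NOXA, rose from 346 and 228 to 1943 and 1468 (2.58, SE 0.26, adjusted p 0.000325). Bbc3, which codes for PUMA, another BH3-only protein, fell from 910 and 742 to 121 and 206 (-2.37, SE 0.59, adjusted p 0.020). Both proteins promote cell death. Plk2 was also called higher and Perp lower, and the median was -0.36. Without C12345delt14 replicate 1 the p53 targets held 1 call, higher, and none lower, and without deltC12345delt14 replicate 1 the same counts. Over all genes 12.6% were called higher and 9.40% lower.

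Known repressors of the 2-cell state were for the most part not called. Of 20 tested none was higher and 2 were lower, close to the 9.40% over all genes. They were Dnmt3a, a de novo DNA methyltransferase (1257 and 1584 to 461 and 576, -1.45, SE 0.22, adjusted p 0.0030), and Max, the partner of MYC and of the repressor MGA (1526 and 1601 to 606 and 907, -1.08, SE 0.24, adjusted p 0.013). Trim28, the corepressor KAP1, was at 61027 and 48947 against 34418 and 36086.5 (0.63, SE 0.16), under the 2-fold limit, and at -0.30 after quantile normalization. Of 14 germline genes Tdrd1 was called higher (2.25, SE 0.63) and Prdm1 lower (-1.66, SE 0.32). The shares over all genes were 12.6% higher and 9.40% lower, and they apply to the feeder and neural lists too. No germline gene was called higher under quantile normalization, without the filter on low values or with only the groups compared. With the high-copy side as a covariate 2 were. The germline median of 0.06 ranged from -0.21 to 0.50 leaving out 1 library at a time. Of 12 fibroblast or feeder genes 6 were tested and 3 had no read in the 4 libraries. Their summed level was 576 and 552 normalised reads in C12345delt14 and 696 and 983 in deltC12345delt14. Within that list the collagen gene Col6a1 was called higher (0 and 3.31 to 109 and 72.2, 5.43, SE 0.78, adjusted p 0.0022), and Pdgfrb and Col1a1 were called lower. Of 10 neural genes 7 were tested and none was called, with sums of 8610 and 7543 against 5648 and 7531. Most of these sums came from Stmn2, a stathmin gene, at 7063 and 6408 against 4220 and 5150. A part of other cells in the results was not tested.

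The largest decreases among genes with little shared sequence fell on genes at modest levels. Chrna4, a nicotinic acetylcholine receptor subunit, went from 209 and 343 normalised reads to 2.29 and 18 (-5.09, SE 0.90, adjusted p 0.0058), the largest decrease of any gene called. Lpar5, a receptor for lysophosphatidic acid, went from 205 and 236 to 11.4 and 15.6 (-3.95, SE 0.49, adjusted p 0.0011). Gja4, the gap junction protein connexin 37, went from 69.8 and 68.8 to 2.29 and 5.74 (-3.90, SE 0.63, adjusted p 0.0037). In all 3 the groups are far apart, though the 2 Chrna4 values in C12345delt14 differ widely. Nkx1-2, Shisal1, Nxph3, Draxin, Tmem130, Atf3 and Inka1 complete the 10, between -4.60 and -3.78. No decrease came near the size of the increases in Zscan4 or Tmem92.

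**Figure D3:**
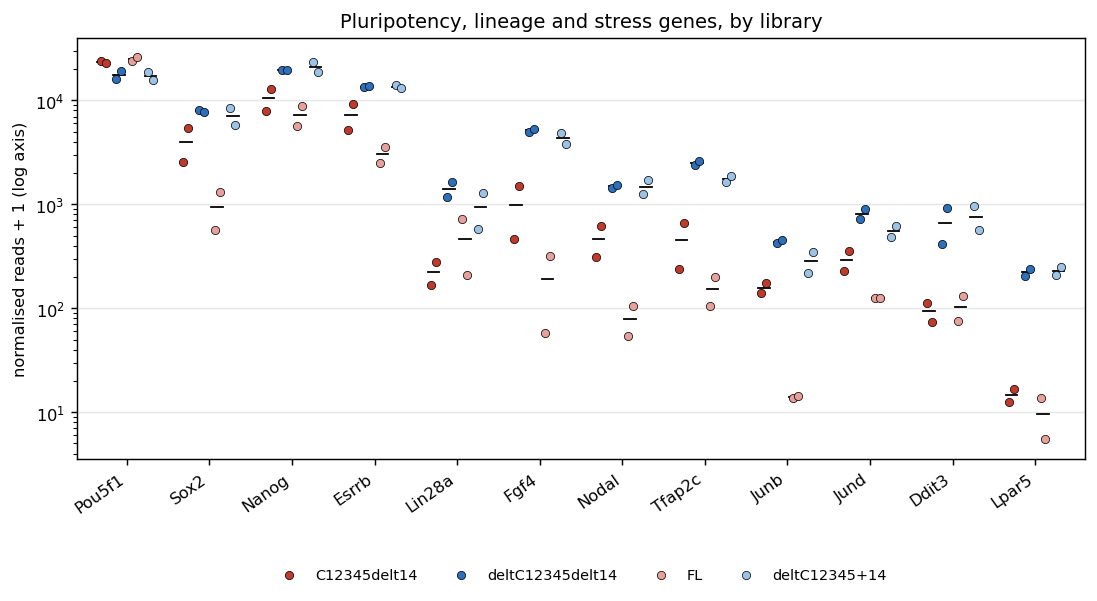
Normalised reads plus 1 on a log axis for 12 pluripotency, lineage, immediate early, stress and strongly lowered genes in the 8 libraries, 1 point per library and a bar at the mean of 2. Pou5f1 differs little between constructs, Lpar5 drops from above 200 to under 16 in C12345delt14, and for Sox2, Fgf4, Nodal, Tfap2c and Junb the FL libraries lie below the C12345delt14 libraries.

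**Figure D4:**
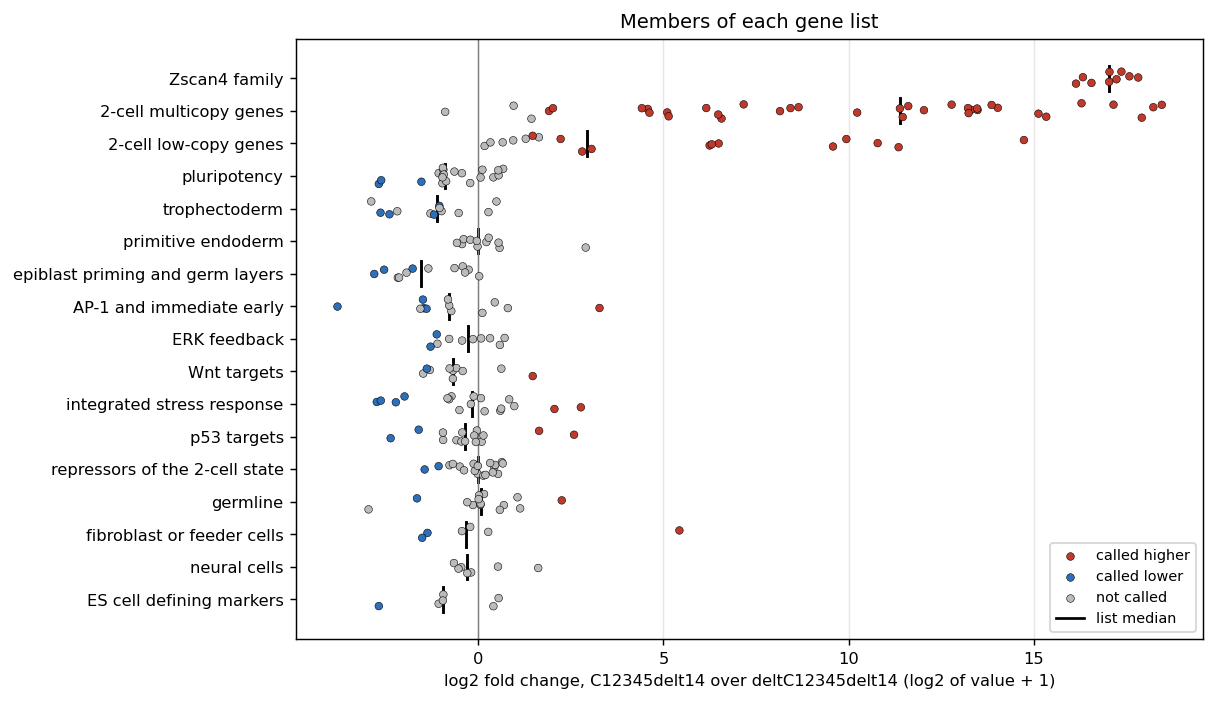
Log2 fold change of C12345delt14 over deltC12345delt14 for each tested member of the 17 gene lists, with 1 point per gene, colour for the call and a bar at the list median. The 3 lists of 2-cell genes have medians of 17.05, 11.39 and 2.93, and the other 14 have medians between -1.56 and 0.06.

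The same repeats were finally examined with the tail present, in libraries that the comparison above does not contrast. Those libraries still entered its pooled spread and its filter on low values, so the comparisons are not fully independent. Between FL and deltC12345+14, 7616 genes were called (38.4%), 3966 higher (20.0%) and 3650 lower (18.4%). Of the 2500 genes called higher without the tail 2171 were also called higher with it, which is 86.8% of the former list and 54.7% of the latter. Of the 1865 called lower 1521 were called lower with it, 81.6% and 41.7%. Differences were mostly smaller without the tail, in 1671 of the 2171 genes called higher in both and in 1184 of the 1521 called lower in both. The median of that difference on the log2 scale was -0.87 for the first and 0.44 for the second. For the Zscan4 family the median was 17.05 without and 18.89 with the tail. Its baselines lie at the floor, with 16 reads in deltC12345delt14 replicate 1 and 0 in its replicate 2 and in deltC12345+14. The Zscan4 medians therefore depend on single reads and on the 1 added to each value. For low-copy 2-cell genes the medians were 2.93 and 4.03, and for pluripotency genes -0.90 and -1.28, with 3 and 11 of 20 called lower. Whether the effect of C1 to C5 differed with the tail was tested by the interaction of repeats and tail. Limma called 0 of 19833 genes (0.00%), the smallest adjusted p being 0.268, while 2748 had an unadjusted p under 0.05. EdgeR called 0, with 2232 at an unadjusted p under 0.05, and DESeq2 called 146.

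Single genes show the range of that interaction. None passed limma's adjusted threshold. Junb, Nelfa, Nodal, Hhip and Sox2 passed that of DESeq2, with adjusted p of 0.000642, 0.00103, 0.000609, 4.03e-06 and 0.0272. For Sox2 the limma log2 fold change was -3.02 with the tail beside -1.07 without it, and the interaction was 1.94 (SE 0.63, adjusted p 0.313). Junb stood at 12.7 and 13.4 normalised reads in FL and 217 and 346 in deltC12345+14, a log2 fold change of -4.29 beside -1.48 without the tail. The interaction was 2.82 (SE 0.44, adjusted p 0.268). Nelfa was at 29293 and 21596 in FL and 1473 and 1454 in deltC12345+14, which is 4.10 beside 2.80, and its interaction was -1.30 (SE 0.22, adjusted p 0.268). Nodal, at 52.6 and 104 in FL, had -4.28 beside -1.78 and an interaction of 2.50 (SE 0.56, adjusted p 0.312). Dppa2 had 2.12 beside 2.22, with an interaction of 0.10 (SE 0.29). Of all called genes 1 was called in opposite directions, Hhip, which codes for a protein that binds hedgehog ligands and was singled out after its values were seen. It had 497 and 421 normalised reads in C12345delt14, 132 and 197 in deltC12345delt14, 152 and 182 in FL and 379 and 379 in deltC12345+14. It was thus higher with the repeats when the tail was absent (1.5, SE 0.25) and lower with them when it was present (-1.18, SE 0.25), and the interaction was 2.68 (SE 0.36, adjusted p 0.268).

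**Figure D5:**
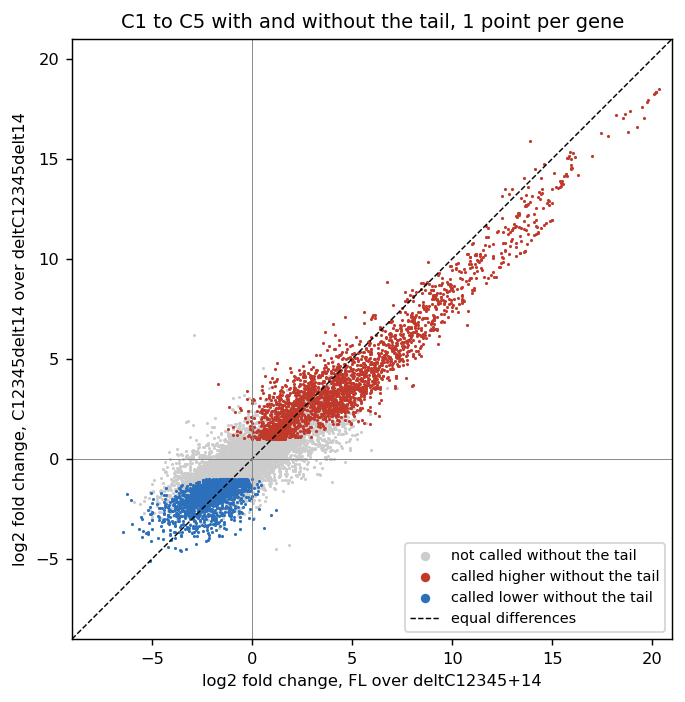
Log2 fold change of C12345delt14 over deltC12345delt14 (vertical) against that of FL over deltC12345+14 (horizontal), 1 point per gene tested (19833), coloured by the call without the tail. Most genes called higher lie below the dashed line of equal differences (1671 of the 2171 called higher in both), and most called lower in both lie above it (1184 of 1521).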

How the data were processed

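Stranded mRNA libraries (TruSeq, per the labels) of mouse embryonic stem cells were analysed from 2 deposited tables, 1 with the 8 libraries of the 4 constructs described and 1 with 14 libraries of 7 constructs, used for the DUX-induced set. The values the authors deposited are a signal: each gene's reads over the size factor of its library. Whole reads were recovered from their steps (100% of 574693 values above 0, within 0.001 read). The submitters' processing notes name Trim Galore 0.5.0, FastQC, DESeq2 and mm10. The aligner, the counting program, its annotation and its treatment of multi-mapping reads are not given in the sources used here. Symbols (99.5% of 55487 identifiers), classes and coordinates are from GENCODE M21 (GRCm38).

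Genes that reached 10 normalised reads in 2 or more libraries entered limma 3.58.1 (R 4.3.3) on log2(value + 1), lmFit and eBayes with a trend, all 4 groups sharing 1 estimate of the spread, Benjamini-Hochberg adjusted. The steps were tested on simulated data. These held no high-copy split between libraries and no changed gene that started without reads, so such calls were not checked. An exact permutation test of 2 against 2 cannot give a p below 0.333 and was not used. Alternatives were edgeR 4.0.16 and DESeq2 1.42.0 on recovered reads, quantile normalization, pseudocounts 0.1 and 8, other filters, only the groups compared, no genes with shared sequence (10% or more of up to 200 sampled 50-base words found in other genes), high-copy side as a covariate, the replicate number as a block and leaving out each library. EdgeR with the authors' size factors was chosen after seeing the data. High-copy genes have 50% or more of their words in 20 or more genes, and the sides lie above and below 1% of reads. Replicates differed by far more than sampling noise (chi-square per gene from 48.6 to 78.9 in the 4 groups), so none is a duplicate.

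The comparison, the 17 gene lists and the naming rule were chosen with earlier results of these data known. The rule names, per list, up to 3 members with the highest mean and up to 2 called members with the largest change. It adds the 10 largest increases and decreases among called genes whose higher group averages 50 or more, with no overlap and little shared sequence, the 3 largest without the last limit, the Dux genes, called interaction genes, Junb and Zfp352. Not every such gene is printed. For the 17 lists, members of limma calls between C12345delt14 and deltC12345delt14 with all libraries, counted in 5 or fewer, are named beside them. Members of families picked by name prefix are not.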

Additional observations from a re-analysis of the deposited data

How the results depend on the processing

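Between C12345delt14 and deltC12345delt14 the number of calls ranged from 3316 (without genes with shared sequence) to 4657 (quantile normalization) over the alternatives that keep all libraries, beside 4365. Leaving out 1 library at a time it ranged from 1862 to 4145, the 1862 without C12345delt14 replicate 1. The 2101 DUX-induced genes called higher became 1117 without genes with shared sequence, where fewer genes were tested, and 1327 to 2027 leaving out 1 library. Between FL and deltC12345+14 the count leaving out 1 library ranged from 5730 to 7764, beside 7616. For the interaction DESeq2 called 146 genes and every other alternative run 0, including each left-out library; the fit on only the groups compared was not run for it, since it needs all 4. Among 73 genes named with a fold change, 3 changed sign, all under quantile normalization: Pou5f1 to -0.34, Dppa5a to -0.36 and Trim28 to -0.30, none of them called. A call was lost in 77 values leaving out a library and in 27 of the other values, and gained in 4 and 5. Replicate numbers are shared by the groups, but do not show a pairing: the differences between replicates 1 and 2 correlated across genes at -0.068 between C12345delt14 and deltC12345delt14 and at -0.022 between FL and deltC12345+14. Across the tail they correlated at 0.135 between FL and C12345delt14 and at -0.574 between deltC12345+14 and deltC12345delt14, whose low-side libraries carry different numbers. With the numbers of deltC12345delt14 crossed in the block, chosen after seeing the data, the interaction gave 0 calls. With the replicate number as a block there were 4114, 1999, 7354 and 0 calls in the order above. With 2 libraries a group the spread rests on 8 libraries pooled, and genes with few reads in deltC12345delt14 have folds limited by depth.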

Other observations

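Replication-dependent histone genes, which normally end without a poly(A) tail, were a further group with a shared direction, picked by name prefix after the values were seen. Of 59 Hist genes tested 53 were called higher in C12345delt14 and none lower (12.6% and 9.40% over all genes), with a median log2 fold change of 4.02 and a range of 0.87 to 5.86. Their summed level was 16421 and 11906 normalised reads against 732 and 960 in deltC12345delt14, and 32661 and 25718 in FL against 898 and 1199 in deltC12345+14. Of the 59, 52 share sequence with other genes, and 4 of the 7 that do not were called higher. Without C12345delt14 replicate 1 there were 39 calls and without deltC12345delt14 replicate 1 there were 48.

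Homeobox genes of the Obox family, active in the early embryo, were higher in 38 of 40 tested, at a median of 6.38. Over all genes 12.6% were called higher. Of the 40 genes 36 share sequence with other genes. In 39 of the 40 no deltC12345delt14 library held more than 3 reads. Those genes passed the filter through other groups, and their folds depend on the 1 added to each value. Olfactory receptor genes (Olfr) were higher in 34 and lower in 1 of 61, at a median of 2.38, beside 12.6% and 9.40% over all genes. Their summed level was 2082 and 2549 normalised reads in C12345delt14 against 367 in deltC12345delt14 replicate 1 and 1792 in replicate 2. With the high-copy side as a covariate 30 were called higher and 2 lower. Fewer were called higher without deltC12345delt14 replicate 1 or without C12345delt14 replicate 1. Beyond the covariate the part of the library split was not tested. Of 37 of these 61 no deltC12345delt14 library held more than 3 reads. Wnt ligand genes were lower in 5 and higher in none of 9, with a median of -2.81, Irf genes (interferon regulatory factors) lower in 5 of 10 and Klf genes lower in 6 of 15, with none higher in either, beside 9.40% lower over all genes. Without C12345delt14 replicate 1 the lower counts were 3 for Wnt, 2 for Irf and 1 for Klf genes, and without deltC12345delt14 replicate 1 they were 3, 4 and 3. Ribosomal protein genes (Rpl and Rps) had 0 calls among 96 without the tail by limma, at a median of 0.75. With the tail 69 were called higher, at a median of 1.16. Over all genes 12.6% were called higher without the tail and 20.0% with it. The medians lie on either side of the 2-fold limit for a call, so the counts depend on that limit. Of the 96 genes 70 share sequence with other genes. The median interaction over these 96 genes was -0.42, and 5 had an unadjusted interaction p under 0.05.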
